A study of Mus musculus with 103 samples.

Results

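Thioglycollate-elicited peritoneal macrophages given KLA for 6 h were compared with untreated macrophages, gene by gene, in 1 library of poly(A) RNA a side. KLA (Kdo2-lipid A) is the lipid A part of bacterial lipopolysaccharide with 2 sugars attached and is recognised by Toll-like receptor 4 (TLR4). Of the 24014 gene symbols in the authors' table, 10383 were compared: those with at least 1 RPKM in 2 or more of the table's 6 libraries and a transcript of at least 200 bases. RPKM is a read count divided by transcript length and by the size of the library, and each symbol was represented by its transcript of highest mean RPKM. Both groups held cells of male C57Bl/6 mice (Harlan Laboratories) aged 6 to 8 weeks. The mice had received 2.5 ml of thioglycollate into the peritoneum, and the cells were washed out 3 to 4 days later. Adherent cells were kept in RPMI medium with 10% serum and then starved overnight in 0.5% serum. The treated group next received KLA at 100 ng/ml for 6 h, and the control is labelled as untreated for the period of 1 to 12 h. The labels give no genotype other than the strain, and they do not say how many mice were pooled or whether the 2 libraries came from 1 preparation of cells. The cells were recruited to an inflamed cavity and had been in low serum for a night before KLA, in both groups. With 1 library a side there is no test and no p-value, and every difference below is a difference between libraries.

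TLR4 binds lipid A together with the co-receptors MD-2 (Ly96) and CD14. From the cell surface it signals through the adaptors TIRAP and MyD88 to the IκB kinases, NF-κB and the MAP kinases. From endosomes it signals through TRAM and TRIF (Ticam2 and Ticam1) to the kinase TBK1 and the transcription factor IRF3, which switches on interferon-β. Secreted interferon-β then acts on the same cells through its receptor and the transcription factor complex ISGF3, so that a layer of inflammatory genes is followed by a layer of interferon-stimulated genes. Both layers are known from macrophages given lipopolysaccharide.

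The libraries were shallow. Whole reads could be recovered from the RPKM values, and the library totals lay between 2205187 and 2674826 reads. Over the tested genes the KLA 6 h library was lower than its control by a median of 0.56 on the log2 scale, so its RPKM values were multiplied by 1.48, and the other libraries were put on the scale of the same control by their own median ratios (factors 0.978 to 1.32). All levels below are RPKM on this scale, and where 2 levels of a gene are joined by "to" or "and" the untreated library comes first. A gene is called higher or lower where the log2 ratio of RPKM + 1 reached 1 or −1, that is 2-fold, and this scale understates the change of weakly expressed genes. For a single gene the fold is the level with KLA divided by the level without it. The range in square brackets after a fold is a 95% exact conditional binomial interval on the recovered reads, and such intervals cover counting error only, not the spread between cultures. Where the control held no read, the fold is a bound against 3 reads in that library. Before the rescaling, a transcript of 1000 bases with 3 reads stands at 1.12 to 1.36 RPKM, depending on the library. In the KLA 6 h library that level is then multiplied by 1.48. Among the 6 libraries used here, the spread between samples of 1 treatment is known only from the other untreated library, labelled for 24 h.

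The labelled cell type was borne out by its markers. All 9 macrophage markers were detected in both libraries, with summed levels of 11546 RPKM untreated and 11355 RPKM with KLA, led by lysozyme (Lyz2, 8848 and 7563 RPKM) and Cd68 (2043 and 2260.5 RPKM), which carry most of the sum. Of the 9, 4 were higher and 0 lower, with a median log2 ratio of 0.86: Cd14, Fcgr1, Emr1 (F4/80, 77.6 to 200.4 RPKM) and Mertk (20.2 to 57.3 RPKM), the last not against the other untreated library (28.2 RPKM). The 9 markers of fibroblasts and mesothelium summed to 128 and 159 RPKM, with Dcn at 58.9 and 76.8 RPKM. Of the 10 neutrophil markers, S100a8 stood at 38.3 and 76.5 RPKM and Mmp8 at 20.3 and 18.3 RPKM, while Camp, Mpo and Retnlg had no read in either library. The 4 tested B cell markers summed to 12.8 and 10.6 RPKM. Among the 10 T and NK cell markers, Cd3d, Cd8a, Gzma and Ncr1 had no read in either library, and of the 2 tested Lck was higher, with 0 and 52 reads. No mast cell or erythroid marker passed the filter. The 1 tested dendritic cell marker, Ccr7, was higher (0.919 to 10.7 RPKM), with Xcr1 and Siglech at 0 reads, and the 1 tested eosinophil marker, Siglec5, was at 5.09 and 3.11 RPKM, with Epx and Prg2 at 0 reads. The part of these cells in the differences below was not tested. In bulk RNA, fewer cells of a type and less RNA per cell cannot be told apart.

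After 6 h of KLA, 1481 of the 10383 genes (14.3%) were at least 2-fold higher and 1162 (11.2%) at least 2-fold lower than in the untreated library. Against both untreated libraries the counts were 1218 (11.7%) and 826 (7.96%). The background between the untreated libraries, treated the same way, was 91 genes higher (0.876%) and 222 lower (2.14%) in the library for 24 h. Without the rescaling the split turned round, with 936 genes higher and 2311 lower, so that 28.8% of the called genes were higher in place of 56.0%. The counting interval lay beyond a ratio of 1 for 1419 of the genes called higher and for 1008 of those called lower.

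On the scale of RPKM + 1 the upper tail was long and the lower tail short. At least 4-fold differences were seen for 624 genes upward and 180 downward, at least 8-fold for 318 and 30, and at least 16-fold for 177 and 3. Upward, 62 genes passed 64-fold, and downward none passed 32-fold on this scale. The added 1 limits how far a weakly expressed gene can fall. By the levels alone, Cnr2 (13.9 RPKM untreated) was 85.9-fold lower and Tns1 (17.0 RPKM untreated) 33.8-fold lower. The starting level bounds these counts, since a gene near the detection limit cannot be called lower. Of the 584 genes under 1 RPKM in the control, 50.3% were called higher and none lower. These genes passed the filter only by reaching 1 RPKM in libraries other than the control, and most of those libraries were given KLA. The 50.3% is therefore set in part by the filter. Among the 584 genes above 100 RPKM the shares were 9.59% higher and 10.4% lower. The transcripts had a median length of 2680 bases for genes called higher, 2377.5 bases for genes called lower and 2687 bases for the rest.

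**Figure D1:**
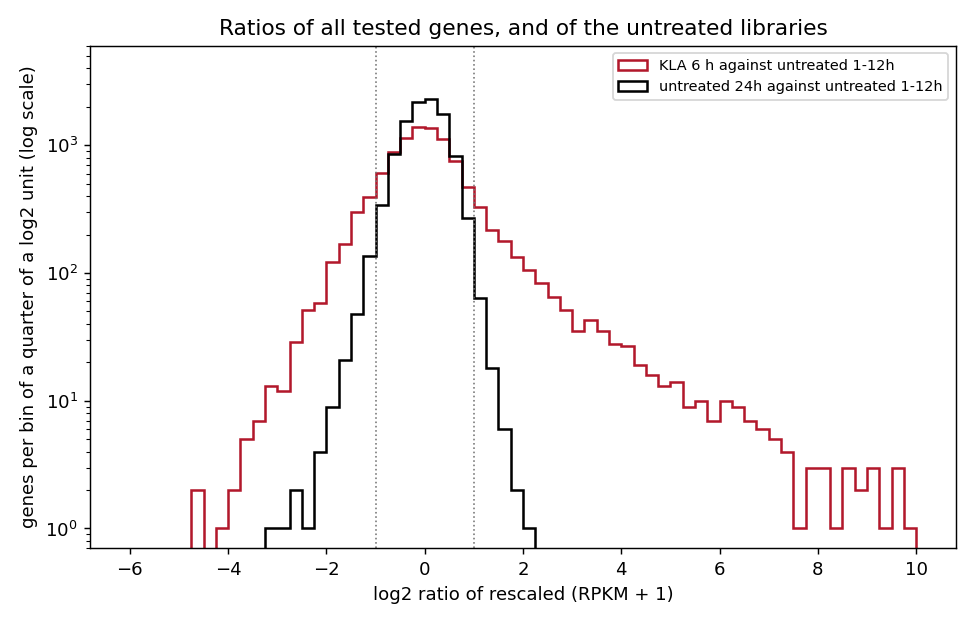
Number of tested genes per bin of log2 ratio of rescaled RPKM + 1 (log scale on the vertical axis), for KLA 6 h against the untreated 1-12h library (red) and for the untreated libraries against each other (black). Dotted lines mark 2-fold; the red upper tail reaches past a log2 ratio of 9, and 313 genes of the untreated pair lie outside the lines against 2643 at 6 h.

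**Figure D2:**
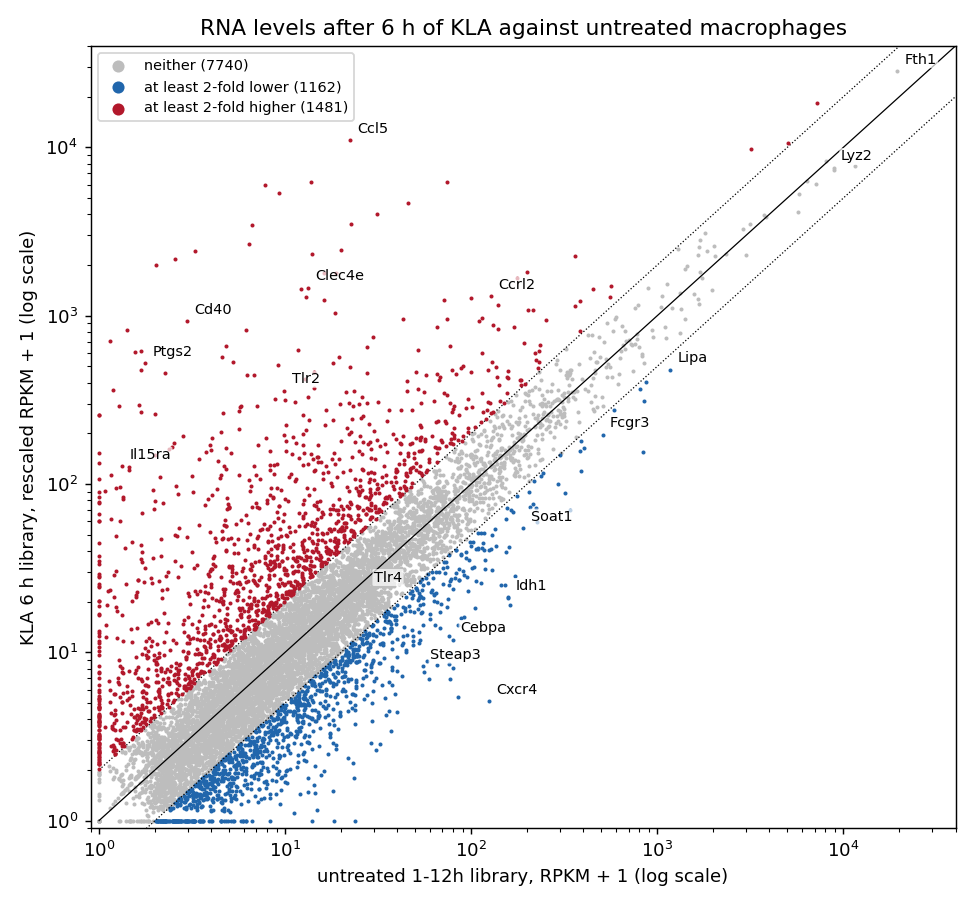
Level of each tested gene in the untreated 1-12h library (horizontal axis, RPKM + 1, log scale) against the KLA 6 h library (vertical axis, rescaled RPKM + 1, log scale), 1 point per gene. The 1481 red points are at least 2-fold higher, the 1162 blue points at least 2-fold lower; solid and dotted lines mark equal levels and 2-fold.

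The genes called higher held a larger share of the RNA with KLA. They held 9.80% of the tested genes' reads in the control and 40.4% at 6 h, a difference that their choice fixes in direction. In libraries that the choice did not use, they held 11.1% of the reads in untreated cells and 34.0% after 24 h of KLA. The genes called lower went from 9.52% to 2.07%, and stood at 9.62% and 3.56% in the 24 h pair.

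**Figure D3:**
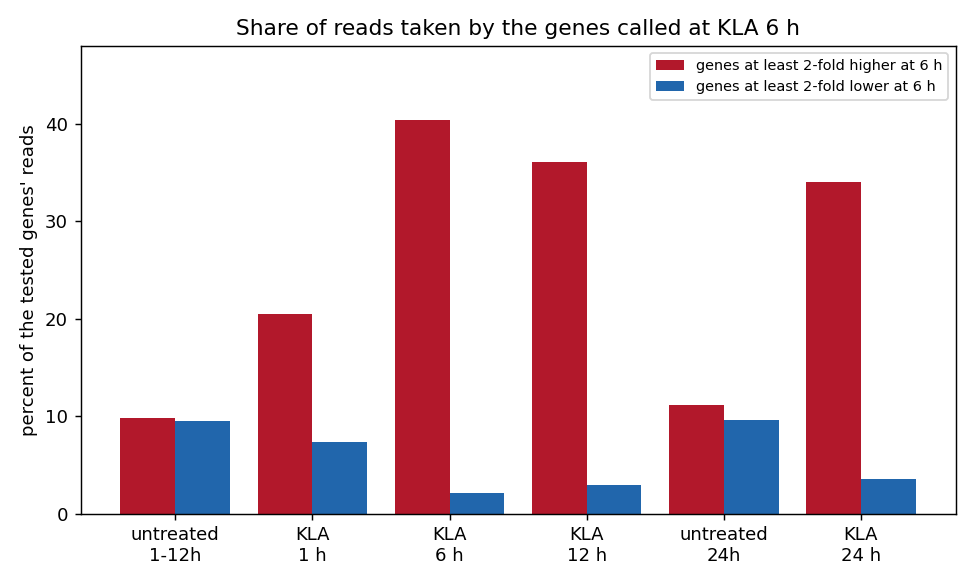
Percent of the tested genes' reads in each of the 6 libraries that belonged to the genes called at least 2-fold higher (red bars) or lower (blue bars) at 6 h. The red bars stand at 9.80% and 11.1% in the untreated libraries and at 40.4% in the KLA 6 h library that chose the genes.

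The 10 most abundant RNAs of each library were mostly those of iron storage, lysosomes and actin. Ferritin heavy chain (Fth1) led both, at 19448 and 28404 RPKM. In the control it was followed by the protease cathepsin D (Ctsd, 11594 and 7694 RPKM), prosaposin (Psap, 8929 and 7301 RPKM), Lyz2 and cathepsin S (Ctss, 8044 and 8248 RPKM). None of these 5 passed 2-fold in either direction. Thymosin β4 (Tmsb4x), which binds actin monomers, was higher at 18423 (7229 untreated) RPKM, as were β-actin (Actb, 3186 to 9716 RPKM) and β2-microglobulin (B2m, 5030.0 to 10614 RPKM), so that all 3 stood above Ctsd at 6 h. Against the other untreated library B2m (5652 RPKM) was under 2-fold. Ccl5 entered the 10 at 11018 RPKM. Galectin-3 (Lgals3), Apoe, ferritin light chain (Ftl1) and Gpnmb, also among the leading RNAs of the control, differed by 1.38-fold or less. Their levels in the other untreated library were 4172, 2765, 2496 and 6238 RPKM, so that against it the first 3 were above the control with log2 ratios of 0.54, 0.93 and 0.72, still under 2-fold.

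Genes of Toll-like receptors, their co-receptors and their adaptors were more often higher than lower. Of Tlr4, Ly96 and Cd14, the receptor genes for KLA itself, only Cd14 passed 2-fold. Tlr4 stood at 26.4 RPKM untreated and 22.8 RPKM with KLA, and Ly96 at 49.0 and 60.0 RPKM. The co-receptor Cd14 went from 56.0 to 439.7 RPKM, 7.85-fold [6.76 to 9.15] higher. Receptors for other microbial products were higher: Tlr2, which senses lipoproteins, went from 8.90 to 357 RPKM (8.88 RPKM in the other untreated library), 40.2-fold [30.8 to 53.4]. The receptor for double-stranded RNA, Tlr3, went from 1.68 to 53.6 RPKM, and that for single-stranded RNA, Tlr7, from 44.0 to 357 RPKM. Tlr13, a sensor of bacterial ribosomal RNA, was the 1 member called lower, at 26.1 (76.7 untreated) RPKM and 2.94-fold [2.48 to 3.51]. In all, 13 of 24 tested members were higher and 1 lower (13 and 1 against both untreated libraries), with a median log2 ratio of 1.36 where that of all genes is 0 by construction. Between the adaptors, Myd88 was at 182 (30.0 untreated) RPKM (6.07-fold [5.00 to 7.43] higher), whereas Ticam1 was at 20.5 and 19.2 RPKM and Ticam2 at 13.6 and 16.4 RPKM, both under 2-fold. The kinase-like inhibitor Irak3 was 5.94-fold [4.34 to 8.28] higher and Irak1 stood at 26.9 and 22.9 RPKM.

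**Figure D4:**
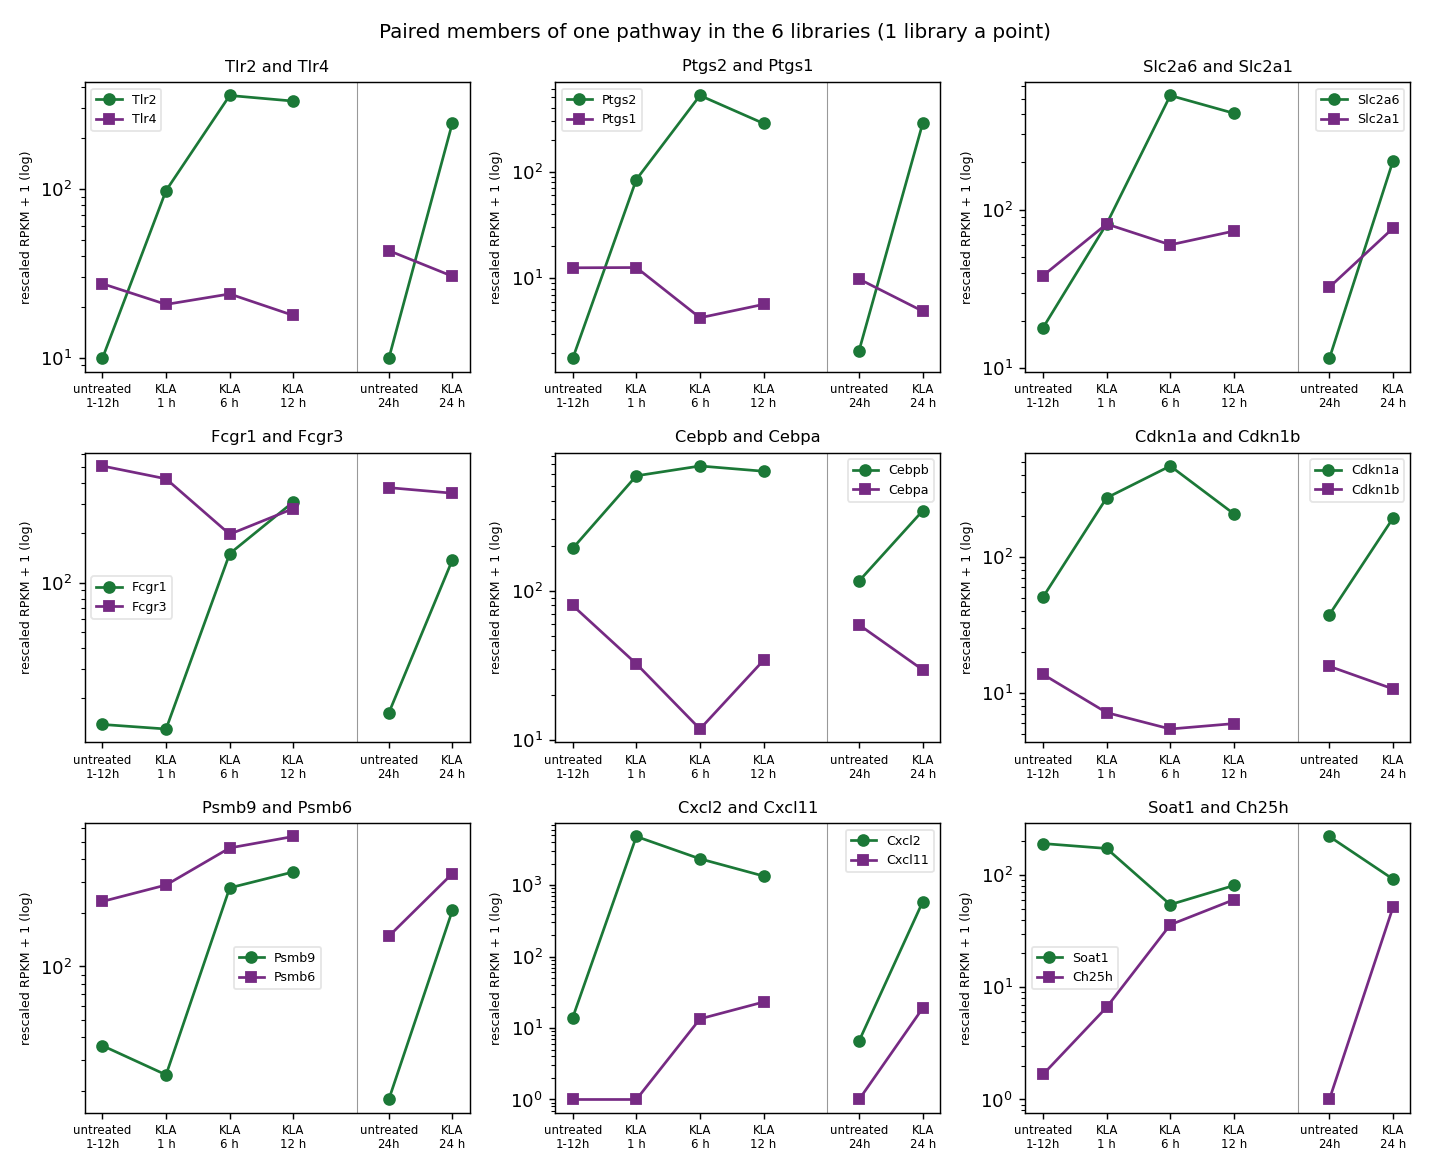
Levels of 9 pairs of genes from the same pathway in the 6 libraries (rescaled RPKM + 1, log scale; 1 library a point; lines join the libraries that share the untreated 1-12h control, and separately the 24 h pair). Tlr2, Ptgs2, Slc2a6, Fcgr1, Cebpb, Cdkn1a, Psmb9, Cxcl2, Cxcl11 and Ch25h are higher at 6 h, Ptgs1, Fcgr3, Cebpa, Cdkn1b and Soat1 are lower, and Tlr4, Slc2a1 and Psmb6 are under 2-fold.

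Subunits and inhibitors of NF-κB were higher. Of 21 tested members 14 were higher and 0 lower (13 higher against both untreated libraries), with a median log2 ratio of 1.86. The precursor of the p52 subunit, Nfkb2, went from 12.4 to 239.5 RPKM, 19.4-fold [15.5 to 24.6] higher, and Nfkb1 from 14.5 to 134 RPKM, while the activating subunit Rela went from 30.6 to 93.4 RPKM. The inhibitor IκBα (Nfkbia) stood at 26.4 RPKM untreated, 1797 at 1 h and 650.5 RPKM at 6 h, still 24.6-fold [19.9 to 30.7] higher. Nfkbiz, a nuclear IκB protein that co-activates late genes such as Il6, was at 2.20, 614 and 88.5 RPKM at the same times. The ubiquitin-editing inhibitor A20 (Tnfaip3) was 14.5-fold [12.2 to 17.3] higher at 6 h. Nfkbid, by contrast, was at 174 RPKM at 1 h and at 15.5 RPKM at 6 h, near its untreated 12.6 RPKM. The kinases upstream, Chuk, Ikbkb and Ikbkg, were at 18.1 (13.2 untreated), 23.9 (16.3 untreated) and 11.7 (11.2 untreated) RPKM and under 2-fold.

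Promoters of these genes were searched for the letters of a κB site, because the NF-κB inhibitors and the chemokines below moved together. The 250 bases before each annotated start (RefSeq, build GRCm38.p6) were searched on both strands for GGG, any 2 bases and TTTCC. These letters were in 1.41% of all 32851 promoters and in 1.89% of the 8362 tested genes that had a promoter. A gene counted if any of its promoters held a match. Of the NF-κB list, 16 of 21 genes had an entry, too few for a share, and 5 of them held a match. The stretches below show 20 bases on each side where the window allows, with the matches in capitals, for genes picked after their values were seen: 4 that were higher (Cxcl1, Cxcl2, Nfkbia and, at 2 alternative starts, Nfkb2), 1 that was lower (Fcgr3) and 1 under 2-fold (Ifngr2). They lie at chr5:90891136-90891203 (Cxcl1, + strand), chr5:90903782-90903850 (Cxcl2, +), chr12:55492648-55492696 (Nfkbia, −), chr19:46304706-46304736 and chr19:46305685-46305734 (Nfkb2, +), chr1:171059526-171059575 (Fcgr3, −) and chr16:91546964-91547013 (Ifngr2, +).
Cxcl1: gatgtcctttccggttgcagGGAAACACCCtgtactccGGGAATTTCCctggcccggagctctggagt
Cxcl2: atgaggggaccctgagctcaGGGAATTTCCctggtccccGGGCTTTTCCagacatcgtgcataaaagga
Nfkbia: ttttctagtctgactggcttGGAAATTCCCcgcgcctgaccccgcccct
Nfkb2, first start: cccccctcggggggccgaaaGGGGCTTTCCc
Nfkb2, second start: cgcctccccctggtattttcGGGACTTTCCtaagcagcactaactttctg
Fcgr3: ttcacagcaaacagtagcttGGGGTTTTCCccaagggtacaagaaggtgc
Ifngr2: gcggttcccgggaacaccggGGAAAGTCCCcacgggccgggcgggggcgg
The matches began within 100 bases of the start in Cxcl1, Cxcl2 and Nfkbia and also in Ifngr2, the gene under 2-fold. In Nfkb2 they began 11 bases before the first start and 225 bases before the second. Cxcl1 and Cxcl2 held a pair each. The same letters stood before a gene that was lower and before one under 2-fold. A match is a run of letters and not a measured binding site.

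Brakes on signalling and on RNA stability differed in timing. Dusp1, a phosphatase that switches off MAP kinases, was at 27.6 RPKM untreated, 1409.8 RPKM at 1 h and 42.7 RPKM at 6 h, where it was under 2-fold. Dusp2 was at 95.0 RPKM at 1 h and 22.0 RPKM at 6 h, and still higher than its control (7.01 RPKM). Among proteins that destroy inflammatory mRNAs, tristetraprolin (Zfp36) was at 53.0, 928 and 217 RPKM, and the endonuclease regnase-1 (Zc3h12a) at 7.44, 75.1 and 93.1 RPKM, 12.5-fold [9.21 to 17.4] higher at 6 h. The relative Zfp36l2 was lower, at 36.7 (87.6 untreated) RPKM. Of 17 tested members, 7 were higher and 1 lower at 6 h.

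Most cytokine genes were higher. Il1a, the gene of interleukin-1α, went from 21.6 to 3497 RPKM, 162-fold [132 to 200.5] higher, and its antagonist Il1rn, already high in untreated cells, from 176 to 1662 RPKM, 9.44-fold [8.82 to 10.1]. Both subunits of interleukin-12, which drives interferon-γ production by T and NK cells, had no read in the untreated library: Il12a stood at 132 RPKM (269 reads, at least 123-fold higher) and Il12b at 106 RPKM (333 reads, at least 152-fold). Il27, the specific subunit of interleukin-27, went from 1 to 331 reads, 455-fold [81.0 to 18010.4], while its partner Ebi3 went from 9.30 to 25.0 RPKM. Interleukin-15 and the receptor chain that presents it, Il15 and Il15ra, went from 7.83 to 317 and from 0.331 to 126 RPKM. Tnfsf9, the ligand of 4-1BB, was at 1637 RPKM at 1 h and at 50.7 RPKM at 6 h against 2.95 RPKM in the control. Interferon-β (Ifnb1) showed the same order, with 34.6 RPKM at 1 h and 3 reads at 6 h (2.43 RPKM), and none in the control.

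Of 37 tested cytokine genes, 28 were higher and 4 lower, with a median log2 ratio of 2.68 (2.37 with the genes without control reads at their bound). The 4 lower ones were Tnfsf12 (TWEAK, 222 to 70.6 RPKM, 3.14-fold [2.68 to 3.69] lower), the growth factor gene Pdgfb (5.86 to 1.48 RPKM), Il16 (19 and 2 reads) and lymphotoxin-β (Ltb, 2.49 to 0.569 RPKM, with 6 and 1 reads, and 0.346 RPKM in the other untreated library, against which it was not lower). The receptors were mixed, with 13 of 32 higher, 3 lower and a median of 0.54. Without the rescaling 9 were higher and 8 lower (median 0.18), and against the other untreated library 12 were higher and 7 lower. The interferon-α/β receptor chains Ifnar1 and Ifnar2 were at 45.5 (14.7 untreated) and at 178 (68.3 untreated) RPKM. The interferon-γ receptor chain Ifngr1 was lower, at 21.4 (51.4 untreated) RPKM, with its partner Ifngr2 at 121 and 148 RPKM. The interleukin-6 receptor Il6ra was the lowest of the list, at 1.30 (11.7 untreated) RPKM and 8.94-fold [4.16 to 22.9] lower, and the shared signalling chain Il6st stood at 16.1 and 8.57 RPKM, under 2-fold. The tumour necrosis factor receptors Tnfrsf1a and Tnfrsf1b were 2.44-fold [2.15 to 2.78] and 5.99-fold [5.66 to 6.34] higher.

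Of the 42 lists, the chemokines gained the most summed RNA. The lists were chosen with earlier results of these data known, so ranks among them are not independent results. The summed level of the 25 tested members was 909 RPKM in the control, 984 RPKM in the other untreated library and 38096 RPKM at 6 h. Ccl5, which attracts T cells and monocytes, went from 21.4 to 11018 RPKM and was 515-fold [349 to 796] higher. The neutrophil attractants Cxcl2 and Cxcl1 went from 13.0 to 2333 and from 8.13 to 509.8 RPKM, below their 1 h levels of 4792 and 1851 RPKM. Their neighbour in function Cxcl3, without a read in the control, stood at 254 RPKM (at least 190.0-fold higher). The monocyte attractant Ccl2 was at 4648 (44.5 untreated) RPKM and the macrophage inflammatory proteins Ccl3 and Ccl4 at 6212 (73.0 untreated) and 3992 (30.3 untreated) RPKM. Cxcl9 and Cxcl11, ligands of the receptor Cxcr3, had no read untreated or at 1 h, and 126 and 32 reads at 6 h. In all 19 of 25 were higher and 1 was lower, with a median of 4.66 (4.11 at the bounds). The exception, Cxcl12, fell from 11 to 2 reads, and Ccl6 and platelet factor 4 (Pf4) stood at 248 (308 untreated) and 211 (204 untreated) RPKM.

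Receptors for chemotactic signals were divided. The formyl peptide receptors, which sense bacterial peptides, were near absent in the control: Fpr2 went from 1 to 171 reads (235-fold [41.6 to 9330.3] higher) and Fpr1 from none to 58 reads (at least 26.6-fold). The fatty acid receptor Gpr84 went from no read to 90 reads. Ccrl2, a chemerin-binding receptor, went from 127 to 1304 RPKM. The receptor of Ccl2 and Ccl7, Ccr2, was lower at 0.694 (3.29 untreated) RPKM but under 2-fold against the other untreated library (1.90 RPKM). Also lower were S1pr1 (4.49 to 1.44 RPKM) and Gpr183, the receptor for an oxysterol made by way of Ch25h (4.78 to 1.06 RPKM). The counts were 7 of 15 higher and 4 lower (7 and 3 against both untreated libraries).

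The interferon pathway was higher from its transcription factors to its inhibitors. Stat2 went from 5.99 to 113 RPKM, 18.8-fold [14.4 to 25.0] higher, and its partner Irf9 from 11.8 to 66.5 RPKM. At 1 h the same RNAs stood at 4.01 and 11.8 RPKM, within 1.5-fold of the control. Irf1 was at 21.2, 354 and 491 RPKM at 0, 1 and 6 h. The inhibitors Usp18, Socs1 and Socs3 were 157-fold [93.6 to 289], 97.1-fold [32.8 to 474] and 58.0-fold [37.7 to 94.2] higher. Irf3, the factor activated by TBK1 without new synthesis, was at 15.2 and 12.9 RPKM and Stat6 at 38.7 and 36.7 RPKM. Of 26 tested members 18 were higher and 0 lower, 18 of them higher against both untreated libraries, with a median of 1.80.

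Antiviral effectors had the largest share of members called higher among the 42 lists. Of 39 tested members 37 were higher, 37 of them against both untreated libraries, with a median log2 ratio of 4.69. Their summed level went from 729.8 to 25920.0 RPKM. The ubiquitin-like protein gene Isg15 went from 5.41 to 2672 RPKM, with 309 RPKM already present at 1 h. Ifit3 went from 3 to 1527 reads, the RNA-binding protein gene Oasl1 from 5.13 to 815 RPKM and the GTPase gene Mx2 from no read to 344 reads (at least 157-fold higher). Bst2 (tetherin), which holds budding virions at the cell surface, was 13.1-fold [10.9 to 15.9] higher. Only Ifitm1 (1 and 2 reads) and Ifitm6 (7.56 and 6.92 RPKM) were under 2-fold, whereas Ifitm3, which blocks viral entry, was at 1817 (199 untreated) RPKM.

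Immunity-related GTPases, which attack the vacuoles of intracellular microbes, were higher in 12 of 14 tested members, with a median of 4.99 (5.14 at the bounds). Gbp2 went from 15.2 to 1785 RPKM (118-fold [94.8 to 148] higher), Gbp3 from 3.84 to 659.7 RPKM, Igtp from 6.06 to 289.9 RPKM and Irgm1 from 28.5 to 744 RPKM. Iigp1 had 1 read in the control and 531 at 6 h. The exceptions, Gbp8 and Tgtp1, had 0 and 0 control reads and 3 and 4 reads at 6 h, and both were higher at 24 h, so that 14 of 14 were higher there. The GTPase genes have close copies of each other, so the reads of Tgtp1 and Tgtp2 in particular may be divided between them.

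The same promoter windows were searched for the letters of an interferon-stimulated response element, GAAA, any 2 bases and GAAA on either strand, the kind of sequence bound by ISGF3. It was in 2.98% of all 32851 promoters, in 3.56% of the 8362 tested genes with a promoter, and in 3.17% of 63 respiratory chain genes. Of the 33 antiviral effectors with a promoter, 13 (39.4%) held it, and of the 16 genes for MHC class I presentation 2 (12.5%). The promoters of these lists had medians of 50.4% and 55.6% G or C bases, against 60% over all tested genes. The part of base composition in the shares was not tested. A gene counted if any of its promoters held the sequence. Among the GTPases 9 of 14 had an entry, too few for a share, and all of these 9 held it. The 16 of 21 NF-κB genes with an entry held none. The stretches show, with the matches in capitals and again picked after the values were seen, 4 genes that were higher (Isg15, Ifit1, Gbp2 and Igtp), 1 that was lower (Glul, glutamine synthetase, 58.8 to 15.8 RPKM) and 1 under 2-fold (Lamp1, 1726 and 1674 RPKM). Their positions are chr4:156200855-156200916 (Isg15, − strand), chr19:34640765-34640833 (Ifit1, +), chr3:142620584-142620633 (Gbp2, +), chr11:58199502-58199551 (Igtp, +), chr1:153899734-153899783 (Glul, +) and chr8:13159006-13159055 (Lamp1, +).
Isg15: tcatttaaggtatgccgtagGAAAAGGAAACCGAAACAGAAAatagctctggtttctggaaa
Ifit1: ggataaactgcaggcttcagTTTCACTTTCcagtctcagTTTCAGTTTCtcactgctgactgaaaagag
Gbp2: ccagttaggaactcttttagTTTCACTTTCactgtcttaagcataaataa
Igtp: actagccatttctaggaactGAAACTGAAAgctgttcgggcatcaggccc
Glul: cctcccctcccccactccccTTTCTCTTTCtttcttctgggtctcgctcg
Lamp1: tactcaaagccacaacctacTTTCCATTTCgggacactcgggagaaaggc
Isg15 held 3 overlapping matches and Ifit1 a pair, at 104 and 85 bases before the start, while the other 4 held 1 each. The Glul match ran through a stretch of pyrimidines and began 175 bases before the start, and the Lamp1 match 135 bases before it, further than the 34 and 59 bases of Igtp and Gbp2. For the genes called higher as a whole, 1161 of 1481 (78.4%) had a promoter entry, and for those called lower 916 of 1162 (78.8%), under the 80% needed for a share, so none is given for them.

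Sensors of foreign nucleic acids were higher in 13 of 15 members, with a median of 4.77. The RNA helicases MDA5 (Ifih1) and RIG-I (Ddx58) went from 4.68 to 285 and from 3.67 to 126 RPKM, and Zbp1, a sensor of Z-form nucleic acid, from 5.23 to 442 RPKM (84.5-fold [44.2 to 186] higher). Ifi205, a member of the DNA-binding PYHIN family, had 2 reads in the control and 1566 at 6 h. The enzyme cGAS (Mb21d1) was at 10.5 (1.22 untreated) RPKM. The adaptors downstream of the sensors were under 2-fold: STING (Tmem173) stood at 10.9 and 22.3 RPKM and Mavs at 13.6 and 8.79 RPKM.

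Genes of inflammasomes and cell death were higher in 19 of 36 members and lower in 3, with a median of 1.10. Nlrp3, the sensor that starts the NLRP3 inflammasome, was at 1.58 RPKM untreated, 145 RPKM at 1 h and 96.7 RPKM at 6 h, 61.2-fold [36.2 to 113] higher. Caspase-11 (Casp4), which binds lipid A in the cytosol, was at 257 (11.4 untreated) RPKM and the pore-forming Gsdmd at 115 (28.9 untreated) RPKM. The effector of necroptosis, Mlkl, went from 6.13 to 170.3 RPKM, while the kinases Ripk1 and Ripk3 were at 17.6 (20.1 untreated) and 7.34 (14.3 untreated) RPKM. The adaptor Pycard was at 51.2 and 41.7 RPKM. The 3 lower members (2 against both untreated libraries) belong to intrinsic apoptosis: the initiator Casp9 (17.0 to 6.41 RPKM, 2.65-fold [1.85 to 3.88] lower), and the BH3-only genes Bbc3 (10.1 to 3.47 RPKM, but under 2-fold against the 6.89 RPKM of the other untreated library) and Bmf (16 reads and 0). The survival factor Cflar was 15.2-fold [12.8 to 18.2] higher. The 3 Bcl2a1 genes, also higher, are near-identical copies and are not given singly.

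Presentation by MHC class I was higher as a group, in 17 of 19 members (16 against both untreated libraries) with a median of 2.69. The peptide transporter Tap1 went from 12.2 to 326 RPKM (26.7-fold [21.2 to 34.1] higher) and Nlrc5, the transactivator of class I genes, from 1.63 to 48.0 RPKM. The class I heavy chain gene H2-K1 went from 566 to 1505 RPKM and H2-D1 stood at 1851 and 2412 RPKM, under 2-fold, with the proviso that these genes share sequence. The 3 catalytic subunits of the immunoproteasome, Psmb8, Psmb9 and Psmb10, were 5.59-fold [4.85 to 6.46], 7.89-fold [6.01 to 10.5] and 9.25-fold [7.65 to 11.3] higher. The subunits they replace, Psmb5, Psmb6 and Psmb7, stood at 51.5 (45.3 untreated), 462 (231 untreated) and 89.4 (80.1 untreated) RPKM, with folds of 1.14, 2.00 and 1.12; against the other untreated library (147 RPKM) Psmb6 was past 2-fold. Of 31 constitutive proteasome genes 4 were higher and 0 lower, with a median of 0.45. Without the rescaling 1 was higher (median -0.10), and against the other untreated library 10 were (median 0.89). At 24 h, in other libraries, 24 of 31 were higher.

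Among genes of MHC class II and costimulation 8 of 14 were higher (5 without the rescaling) and 0 lower. Cd40 went from 1.96 to 931 RPKM (2.80 RPKM in the other untreated library), 475-fold [230.3 to 1183] higher, and PD-L1 (Cd274), an inhibitory ligand, from 41.9 to 954 RPKM, 22.8-fold [20.4 to 25.5]. Cd86 went from 3.04 to 85.4 RPKM and Cd80 from 5.07 to 12.5 RPKM. H2-Ab1 was just past 2-fold, at 243 (119 untreated) RPKM, whereas H2-Aa, H2-Eb1 and the invariant chain Cd74 were at 275 (181 untreated), 82.2 (62.3 untreated) and 741 (484 untreated) RPKM, under 2-fold. Against the other untreated library (253 RPKM) Cd74 was past 2-fold. The class II transactivator Ciita had 10 and 19 reads.

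Some genes that supply nitric oxide synthesis were higher beside the synthase itself. The arginine transporter Slc7a2 went from 1.82 to 192 RPKM and Gch1, the first enzyme of the cofactor tetrahydrobiopterin, from 14.0 to 170.2 RPKM. The later enzymes of that cofactor, Pts and Spr, stood at 11.4 (21.0 untreated) and 9.66 (19.6 untreated) RPKM, under 2-fold. Ass1, which recycles citrulline to arginine, went from 3 to 24 reads. Arginase-1 (Arg1) was lower, at 4.64 (13.5 untreated) RPKM and 2.91-fold [1.48 to 6.25], but under 2-fold against the other untreated library (9.48 RPKM), and arginase-2 (Arg2) went from 1 to 16 reads. The counts were 5 of 12 higher and 1 lower, with 5 and 0 against both untreated libraries.

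Most genes of central metabolism were under 2-fold on the rescaled values, and the counts moved with the scale. Of 23 glycolysis genes 5 were higher and 1 lower, with a median of -0.01; without the rescaling 3 were higher and 7 lower, with a median of -0.52. The glucose transporter gene Slc2a6 went from 17.0 to 524 RPKM, 30.8-fold [24.4 to 39.4] higher, while Slc2a1 was at 37.4 and 59.1 RPKM. Hexokinase 2 (Hk2) was at 33.9 (7.32 untreated) RPKM and the hypoxia factor Hif1a at 104 (24.3 untreated) RPKM, and the middle enzymes Aldoa, Tpi1 and Pkm stood at 305 (437 untreated), 61.9 (117 untreated) and 144 (199.8 untreated) RPKM, all under 2-fold. In the 24 h pair 13 of 23 were higher. Of 21 genes of the TCA cycle and itaconate, the itaconate enzyme Irg1 was the 1 higher and Idh1 the 1 lower (5 lower without the rescaling). Idh1, the cytosolic isocitrate dehydrogenase that makes NADPH, went from 156 to 20.1 RPKM, 7.78-fold [6.11 to 10.0] lower, while the mitochondrial Idh2 stood at 22.4 and 12.8 RPKM and Idh3a at 15.3 and 13.5 RPKM. Respiratory chain genes numbered 0 higher and 3 lower of 74 (median -0.16). Without the rescaling 14 were lower, and against the other untreated library 4 were higher and 0 lower. The ATP synthase gene Atp5b stood at 267 and 353 RPKM. Cytosolic ribosomal proteins counted 3 and 6 of 78 (median -0.02) and mitochondrial ones 4 and 3 of 77 (median -0.03), all below the shares over all genes. Without the rescaling 14 cytosolic and 11 mitochondrial ones were lower, and against the other untreated library 1 of each was lower and 9 and 8 were higher. Ribosomal protein genes have many processed copies, so single members are not given.

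Eicosanoid synthesis was divided. The inducible cyclo-oxygenase Ptgs2 went from 0.766 to 520.0 RPKM, 679-fold [329 to 1689.8] higher, the prostaglandin E synthase Ptges from 5 to 152 reads, and the phospholipase Pla2g4a from 4.46 to 28.7 RPKM. The constitutive cyclo-oxygenase Ptgs1 was lower, at 3.26 (11.6 untreated) RPKM and 3.54-fold [2.01 to 6.65]. The prostaglandin D synthase Hpgds was at 11.5 (41.8 untreated) RPKM, and the leukotriene enzymes Lta4h and Ltc4s at 21.1 (62.1 untreated) and at 1.06 (6.95 untreated) RPKM (9 and 1 reads for Ltc4s). The other untreated library held 0 reads of Ltc4s, so that its direction turned against that control. These 3 higher and 4 lower genes were all of the 14 tested that passed 2-fold, and the median was -0.61, or -0.01 when set against the untreated library for 24 h.

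Phagocytic and scavenger receptors were also divided, with 9 of 27 higher and 5 lower. The mycobacterial glycolipid receptor Mincle (Clec4e) went from 12.2 to 1464 RPKM, 119.5-fold [94.1 to 154] higher, and the oxidised LDL receptor Olr1 from 1 to 286 reads. The scavenger receptor Msr1 was at 274 (40.8 untreated) RPKM and the receptor for apoptotic cells Axl at 107 (10.4 untreated) RPKM, while Gas6, a ligand of Axl, was lower at 6.49 (14.5 untreated) RPKM. The HDL receptor Scarb1 was at 14.1 (34.7 untreated) RPKM. Abundant receptors such as Cd36, Trem2 and Clec7a stood at 1098 (1337 untreated), 734 (1106 untreated) and 468 (736 untreated) RPKM, under 2-fold at 6 h, and all 3 were lower in the 24 h pair.

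Among Fc receptors and complement, 6 of 18 were higher and 1 lower (5 and 0 against both untreated libraries). Factor B (Cfb), an enzyme of the alternative complement pathway, went from 3.63 to 264 RPKM, 72.5-fold [47.7 to 116] higher, and C3 from 20.7 to 64.1 RPKM. The C1q chains C1qa, C1qb and C1qc stood at 136 (112 untreated), 421 (394 untreated) and 196 (238 untreated) RPKM. The high-affinity IgG receptor Fcgr1 went from 12.8 to 149 RPKM and Fcgr3 from 508 to 195 RPKM, 2.60-fold [2.33 to 2.90] lower. Against the other untreated library (375 RPKM) Fcgr3 was under 2-fold. The inhibitory Fcgr2b was at 138 and 270.4 RPKM, just under the threshold.

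Lysosomal genes were nearly all under 2-fold, with 1 of 36 higher and 3 lower, and summed levels of 48199.8 and 42781 RPKM. The cathepsins Ctsb and Ctsl stood at 3874 (3836 untreated) and 3932 (3751 untreated) RPKM. The exceptions were cathepsin C (Ctsc), higher at 236 (71.2 untreated) RPKM, and 3 lower genes. These were the acid lipase Lipa (1171 to 477 RPKM, 2.45-fold [2.34 to 2.57]), the proton pump subunit Atp6v0d2 (873 to 399.8 RPKM) and Tfeb, the transcription factor of lysosomal genes (32.9 to 8.28 RPKM, 3.97-fold [2.69 to 6.03]).

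Of 38 tested transcription factors of macrophages, 14 were higher (36.8%, against 14.3% over all genes) and 4 lower (10.5%, near the 11.2% over all genes). Without the rescaling 8 were higher and 7 lower. Cebpb went from 191 to 682 RPKM while its relative Cebpa went from 78.6 to 10.9 RPKM, 7.23-fold [5.33 to 10.0] lower. Maf was at 70.3 (16.3 untreated) RPKM, 4.31-fold [3.53 to 5.29] higher. Of the AP-1 family, Junb was higher at 279 (78.7 untreated) RPKM, Jun lower at 19.7 (73.9 untreated) RPKM and Fos at 13.7 and 6.55 RPKM. Batf2 was highest of the list, from 5 to 189 reads, and the lineage factor Spi1 (PU.1) stood at 284 and 515 RPKM, under 2-fold, but was past it against the other untreated library (159 RPKM). The immediate early gene Egr1 was at 246 RPKM at 1 h and 6.29 RPKM at 6 h, against 3.84 RPKM.

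Nuclear receptors were mostly under 2-fold, with 1 of 14 higher, 2 lower and a median of -0.55. These shares are 7.14% and 14.3%, against 14.3% and 11.2% over all genes. Without the rescaling 0 were higher and 6 lower. Against the other untreated library 0 were higher and 4 lower, with a median of -0.25. Pparg, the receptor that drives lipid-handling genes in macrophages, went from 64.1 to 7.40 RPKM (62.7 RPKM in the other untreated library), 8.67-fold [5.55 to 14.3] lower. The glucocorticoid receptor Nr3c1 was higher, at 30.9 (11.6 untreated) RPKM. Its difference from the other untreated library (20.3 RPKM) was under 2-fold. The LXR genes Nr1h3 and Nr1h2 were at 39.4 (28.5 untreated) and 54.1 (43.2 untreated) RPKM.

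The list with the lowest median was that of genes linked to FoxO factors and to growth factor withdrawal: 11 of 19 were lower (9 against both untreated libraries) and 2 higher (0 against both), with a median log2 ratio of -1.20. This list was chosen with earlier results of these data known, so its rank is not an independent result. FoxO factors are held out of the nucleus by growth factor signalling and act in starved cells, and both groups here had been starved of serum. Whether FoxO factors set these differences was not tested. The factor Foxo3 itself went from 12.2 to 1.94 RPKM (6.31-fold [3.16 to 14.3] lower). The ubiquitin ligase gene Fbxo32 went from 36.2 to 2.42 RPKM and Sesn1, an inhibitor of mTORC1, from 28.0 to 1.91 RPKM, 14.7-fold [7.26 to 34.5]. The mitophagy receptor Bnip3l was at 34.5 (117 untreated) RPKM. Cited2, a regulator that competes with HIF-1 for its co-activator, was higher, at 70.9 (26.5 untreated) RPKM, but under 2-fold against the other untreated library (40.2 RPKM). In the 24 h pair 12 were lower. The clock list held 0 higher and 4 lower of 12 (median -0.70), with the output factor genes Tef and Dbp at 1.47 (8.87 untreated) and at 0.371 (4.33 untreated) RPKM and the core genes Clock and Arntl at 4.16 (3.40 untreated) and 2.86 (3.47 untreated) RPKM.

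Cell cycle genes pointed to no single direction, with 5 of 25 higher and 4 lower. Ccnd2, a G1 cyclin, went from 9 to 614 reads, 93.7-fold [49.0 to 206] higher, and the inhibitor p21 (Cdkn1a) from 49.4 to 464 RPKM, 9.38-fold [8.11 to 10.9]. The other inhibitors of its kind, Cdkn1b and Cdkn1c, were lower at 4.40 (12.6 untreated) and at 147 (297 untreated) RPKM, and Cdkn2c went from 21 to 4 reads. Genes of DNA synthesis and mitosis stayed low in both libraries, such as Top2a at 1.13 and 1.31 RPKM and Cdk1 at 2.38 and 1.74 RPKM.

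Of 32 genes of oxidative stress and metal handling, 10 were higher and 4 lower, with a median of 0.45 (-0.10 without the rescaling). The mitochondrial superoxide dismutase Sod2 went from 22.5 to 357 RPKM, 15.8-fold [13.6 to 18.5] higher, while the cytosolic Sod1 stood at 121 and 91.5 RPKM. The NADPH oxidase subunit Cybb was 5.37-fold [5.12 to 5.64] higher, and catalase (Cat) was lower at 25.9 (85.0 untreated) RPKM. Single genes of iron transport went in both directions. Lower were the transferrin receptor Tfrc, at 49.9 (108 untreated) RPKM and the endosomal ferrireductase Steap3, at 7.24 (53.8 untreated) RPKM, 7.44-fold [5.17 to 11.1] lower. The exporter ferroportin (Slc40a1) had 19 reads in the control and 0 at 6 h (at least 4.61-fold lower). The metal importer genes Slc11a2 (DMT1) and Slc39a14 (ZIP14) were higher, at 87.2 (31.1 untreated) and at 10.2 (2.95 untreated) RPKM. Hepcidin (Hamp), the hormone that degrades ferroportin, went from 1 to 29 reads, and lipocalin-2 (Lcn2), which takes iron from bacteria, from 0 to 46 (at least 21.1-fold higher). Of 16 genes of the ER stress and amino acid response 1 was higher and 3 were lower (1 against both untreated libraries, and 6 without the rescaling). The chaperone gene Hspa5 stood at 235 and 414 RPKM and the kinase gene Eif2ak3 (PERK) was lower at 1.80 (5.45 untreated) RPKM. Ddit3 (CHOP) was lower at 12.9 (33.1 untreated) RPKM, but not against the other untreated library (16.6 RPKM).

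Proteases, their inhibitors and coagulation genes were higher in 13 of 22 members and lower in 3. Serpinb2, an inhibitor of plasminogen activators, went from 6 to 507 reads, 116-fold [53.0 to 318] higher. Its target urokinase (Plau) went from 79.6 to 214 RPKM. Coagulation factor X (F10) was at 852 (64.2 untreated) RPKM and tissue factor (F3) at 27.6 (7.74 untreated) RPKM, while the anticoagulant thrombomodulin (Thbd) was lower at 1.01 (9.27 untreated) RPKM, 9.22-fold [4.05 to 25.9]. The membrane protease Mmp14 and the protease inhibitor Timp1 went from 21.0 to 299.9 and from 7.71 to 129 RPKM. Mmp19 was lower at 21.9 (59.4 untreated) RPKM, and the abundant Mmp12 stood at 3132 and 3498 RPKM.

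Adhesion genes held 9 higher and 3 lower of 19, with a median of 0.30 that becomes -0.25 without the rescaling. Icam1 went from 13.2 to 464 RPKM, 35.1-fold [27.8 to 44.9] higher, and Vcam1 from 9 to 416 reads. The integrin chains Itgb5, Itgb3 and Itga6 were lower, at 18.2 (51.7 untreated), 1.72 (9.18 untreated) and 4.04 (13.2 untreated) RPKM, and Itga5, the fibronectin receptor chain, was 4.85-fold [4.20 to 5.62] higher. Itgb2, the common chain of leukocyte integrins, was at 675 and 703 RPKM. Of 10 purinergic genes 3 were higher and 1 lower, with a median of 0.32 (-0.20 without the rescaling). The adenosine receptor Adora2a, which damps inflammation, went from 2.44 to 56.0 RPKM, 23.0-fold [13.4 to 42.6] higher, and the ectonucleotidase Entpd1, which removes extracellular ATP, from 30.0 to 12.6 RPKM.

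**Figure D5:**
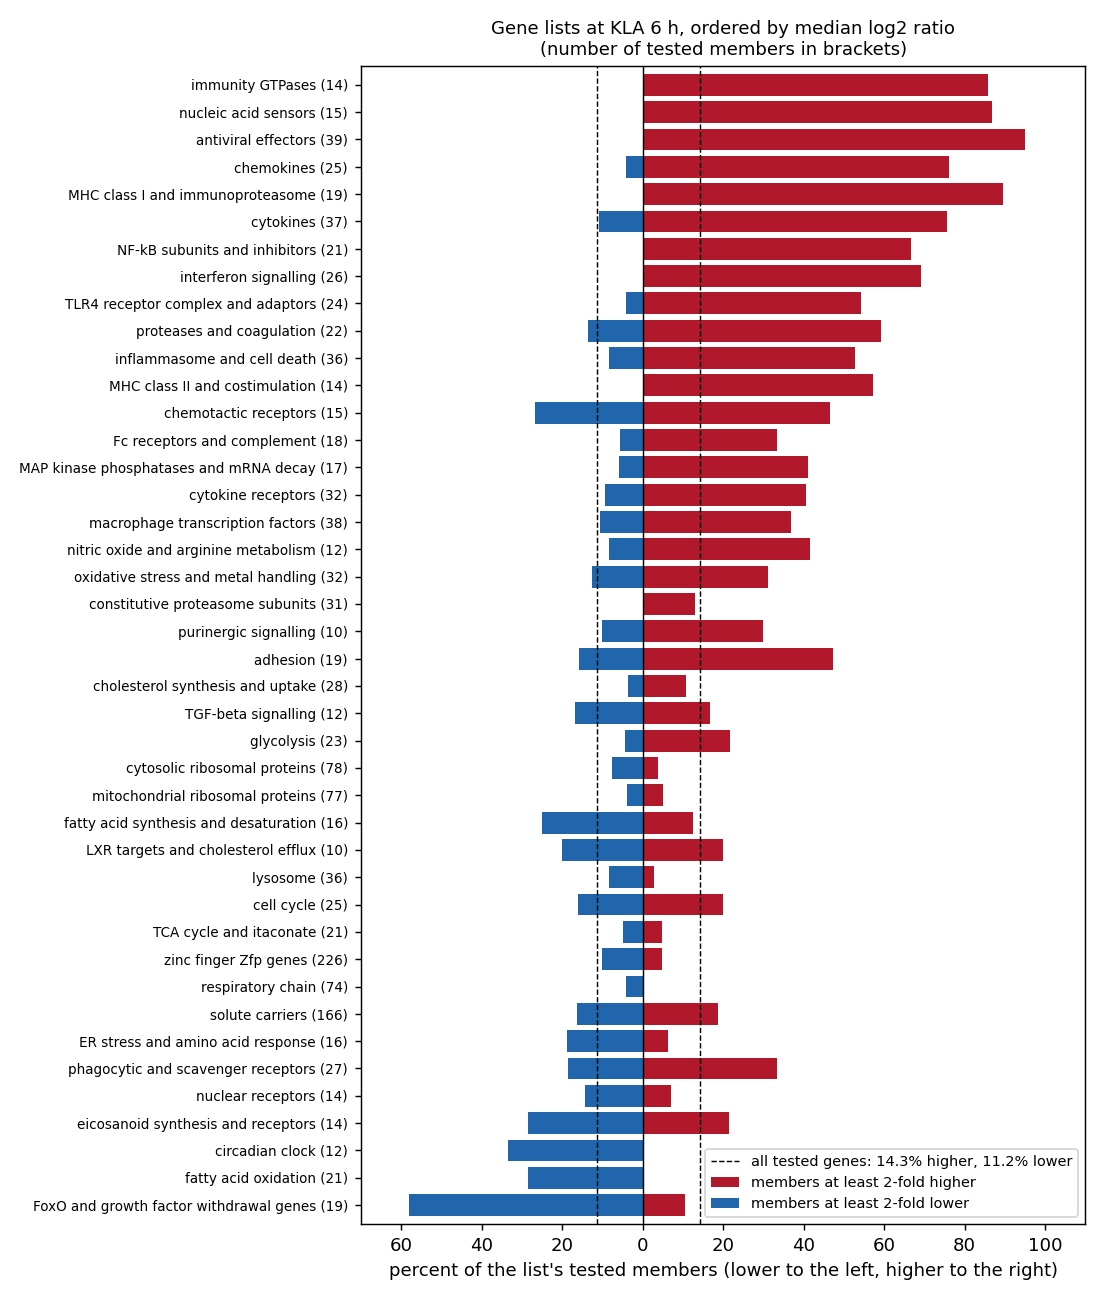
Share of each list's tested members at least 2-fold higher (red, to the right) or lower (blue, to the left) at 6 h, with the lists ordered by median log2 ratio and the number of tested members in brackets. Dashed lines mark the shares over all tested genes, 14.3% and 11.2%; 12 of the 42 lists have a median of at least 1 and 1, the FoxO list, of at most −1.

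Among lipid genes Soat1, which esterifies cholesterol, and Nceh1, which hydrolyses the esters, were both lower, at 53.5 (189.8 untreated) RPKM (3.55-fold [3.19 to 3.95]) and at 41.3 (158 untreated) RPKM (3.84-fold [3.38 to 4.36]), with 219 and 175 RPKM in the other untreated library. Ch25h, which makes 25-hydroxycholesterol, went from 2 to 76 reads. Of the 10 LXR targets and efflux genes 2 were higher and 2 lower, and their median was -0.06 (or 0.48 when set against the untreated library for 24 h). Cholesterol synthesis and uptake counted 3 higher and 1 lower of 28, with a median of 0.18 that becomes -0.34 without the rescaling, where none was higher and 2 were lower; against both untreated libraries 1 was higher. Among fatty acid genes, the acyl-CoA synthetase Acsl1 was 7.34-fold [5.73 to 9.50] higher and Acsl3 was at 1.96 (5.48 untreated) RPKM. Fatty acid oxidation had 0 higher and 6 lower of 21, with a median of -0.80. Without the rescaling 12 were lower, and with a pseudocount of 3 in place of 1 there were 3. Its lower members included peroxisomal Acox3 (38.9 to 8.35 RPKM, 4.66-fold [3.48 to 6.34]) and mitochondrial Acaa2 (35.1 to 12.0 RPKM). The carnitine transferase Cpt1a stood at 19.7 and 23.2 RPKM.

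Of 12 TGF-β signalling genes 2 were higher and 2 lower, with a median of 0.09 that becomes -0.34 without the rescaling. The repressor Skil was 6.91-fold [5.24 to 9.25] higher and its relative Ski 3.21-fold [2.20 to 4.81] lower, and the inhibitor Smad7 went from 24 to 2 reads. Solute carriers as a family counted 31 higher and 27 lower of 166 (18.7% and 16.3%, against 14.3% and 11.2% over all genes), with a median of -0.17. Without the rescaling 17 solute carriers were higher and 47 lower, and against the other untreated library 24 were higher and 31 lower. Their lowest member was the amino acid transporter Slc43a2, at 3.25 (34.0 untreated) RPKM and 10.5-fold [7.45 to 15.1] lower, followed by the lysosomal Slc46a3 (17.8 to 1.80 RPKM), and the glutamate-cystine exchanger Slc7a11 was higher at 19.0 (3.64 untreated) RPKM. Zinc finger genes with Zfp symbols counted 11 higher and 23 lower of 226 (4.87% and 10.2%, both below the shares over all genes). With a pseudocount of 3 in place of 1, 5 were higher and 3 lower, and with 0.5, 12 and 38. Zfp800 was at 46.2 (3.96 untreated) RPKM and Zfp395 went from 57 to 2 reads.

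The 15 largest ratios in each direction were taken on the scale of RPKM + 1, among genes with at least 10 RPKM in a library. They are those of Ccl5, Isg15, Ifi205, Cd40, Fbxo32 and Sesn1, whose values stand above, and 24 others. Upward, the antiviral effector genes Ifit2 and Ifit1 led, from 1.03 to 1989 and from 1.55 to 2154 RPKM, with 9 reads each in the control. Il1b, the gene of interleukin-1β, went from 6.84 to 5983 RPKM and stood at 2392 RPKM at 1 h. The nucleotide kinase gene Cmpk2 and its neighbour Rsad2 (viperin) went from 2.28 to 2432 and from 12.7 to 6231 RPKM, with 5.07 and 99.8 RPKM at 1 h. The GTPase genes Gbp5 and Mx1 had 1 and 4 reads in the control and 3440 and 2658 at 6 h. The chemokine gene Cxcl10 went from 8.25 to 5383 RPKM, and Il6, the gene of interleukin-6, from 1 to 1428 reads. The itaconate enzyme gene Irg1 went from 5.61 to 3433 RPKM. At 1 h Il1b had the highest level of these 10, followed by Irg1 (825 RPKM).

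Downward, the lowest ratio of RPKM + 1 was that of the chemokine receptor gene Cxcr4. It stood at 124 RPKM untreated, 57.7 RPKM at 1 h and 4.12 RPKM at 6 h, with 87.6 RPKM in the other untreated library. At 6 h it was 30.1-fold [17.1 to 58.6] lower. Tsc22d3 (GILZ), a glucocorticoid-induced regulator, was at 83.5, 24.6 and 4.42 RPKM at the same times. Tcp11l2 and 1810011H11Rik had 120 and 56 reads in the control and none at 6 h (at least 29.1-fold and at least 13.6-fold lower). The sialyltransferase gene St6gal1 was at 1.85 (31.5 untreated) RPKM and Ypel3 at 5.89 (76.2 untreated) RPKM, and both were within 1.5-fold of the control at 1 h.

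The other 8 of the 30 belong to no list used here. Upward it was Edn1, the gene of the vasoconstrictor endothelin-1 (chr13 42396639 to 42403358, mm9), which went from 1 to 1358 reads and from 0.194 to 361 RPKM, with 0.645 RPKM in the other untreated library. Downward, the cannabinoid receptor 2 gene Cnr2 (chr4 135451319 to 135476125) went from 13.9 to 0.161 RPKM, 85.9-fold [15.1 to 3422] lower. The focal adhesion gene Tns1 was at 0.503 (17.0 untreated) RPKM, the glycosyltransferase gene Galnt9 at 0.799 (22.4 untreated) RPKM, Susd3 at 1.63 (29.8 untreated) RPKM and the hydrolase gene Cmbl at 1.20 (22.2 untreated) RPKM. Arhgap19 went from 144 reads to none (at least 34.9-fold lower), and 6430548M08Rik from 124 reads to 1. All 30 genes were called in the same direction against the other untreated library and in the 24 h pair.

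The 24 h pair, KLA for 24 h against its own untreated library, shares no library with the 6 h comparison. There, 1131 genes were higher (10.9%) and 917 lower (8.83%). Of the genes higher at 6 h, 798 (53.9%) were also higher at 24 h, and they made up 70.6% of the 24 h genes, while 10 were lower. Of the genes lower at 6 h, 466 (40.1%) were also lower at 24 h, which is 50.8% of the 24 h genes, and 17 were higher. Antiviral effectors were higher in 37 of 39 at 6 h and 37 at 24 h, MHC class I genes in 17 and 18 of 19, and NF-κB genes in 14 and 11 of 21. Whether the times differ was not tested.

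The chromatin data bear on the compared genes by position. A peak of LXR after the LXR agonist GW3965 (so named in the sample's title, though its treatment label reads none) lay within 1000 bases of the start of 55.6% of the genes lower at 6 h, 53.1% of those under 2-fold and 49.6% of the higher ones. For SREBP1, the regulator of lipid synthesis genes, the shares were 40.4%, 43.0% and 35.8%. Among the 177 genes at least 16-fold higher, 46.9% had an LXR peak and 21.5% an SREBP1 peak there, below the 52.9% and 41.7% over all tested genes. Per the labels, the cells of these peak lists were not given KLA, and what sets the shares was not tested.

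The 2-fold threshold cut through a continuum. Just inside it lay Itprip, at a log2 ratio of 1.0002 and 2.89 to 6.78 RPKM, and just outside it Psmb6, at 0.998. On the lower side Mfsd6 (3.61 to 1.31 RPKM) lay just inside and Ttc38 (2.66 and 0.830 RPKM) just outside.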

How the data were processed

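Poly(A) RNA-seq libraries of peritoneal macrophages were compared, 1 library a group. The RPKM values of the deposited table were made by the authors from reads aligned to mm9. The submitters' processing notes name Bowtie 0.12.7, STAR and HOMER, with no role for each and no handling of strand, so values of overlapping, antisense and closely related genes are uncertain. The peak lists, per the file headers, give the authors' normalized tag count signal, of which positions only were used.

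Whole reads were recovered from the RPKM values with the transcript lengths (at least 99.97% of values whole within 0.01 read) and used for exact binomial intervals, at a confidence level of 95%. Libraries were rescaled by their median ratio to the untreated 1-12h library, and 1 was added to RPKM before taking log2. With 1 library a group no count model or test was run, and no value has a replicate error. Members and lists were chosen with earlier results of these data known. Named genes are the 15 highest and 15 lowest ratios with at least 10 RPKM, the 10 most abundant RNAs of each library, and members of each list chosen for ratio, level or role. About 6 a list were foreseen, and where more appear they were chosen after their values were seen. Promoters were RefSeq's for GRCm38.p6, found for 8362 of 10383 genes (80.5%) by symbol. Python 3.11.15, numpy 2.4.6, pandas 2.3.3, scipy 1.17.1 and matplotlib 3.10.9 were used, and the calculations were tested on simulated data. Alternatives were other scalings, pseudocounts, filters and controls. The bone marrow macrophage and knockdown libraries were not used here. Nor were the other untreated poly(A) RNA libraries of thioglycollate-elicited macrophages in the series. Some members are not reported here.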

Additional observations from a re-analysis of the deposited data

Results flagged for a closer look

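Of the genes named above, 4 passed 2-fold in opposite directions in the 6 h and the 24 h pair of libraries, each pair with its own untreated library. Cited2, a transcriptional regulator, had a log2 ratio of 1.39 at 6 h and -1.22 at 24 h, with 24 h levels of 40.2 RPKM untreated and 16.7 RPKM with KLA. Dusp2, a nuclear MAP kinase phosphatase, had 1.52 and -1.39, with 4.21 and 0.990 RPKM in the 24 h pair. Ddit3, the stress factor CHOP, went the other way, with -1.30 at 6 h and 1.79 at 24 h, where it stood at 16.6 RPKM untreated and 59.9 RPKM with KLA. Ltc4s, the leukotriene C4 synthase gene, had -1.95 and 1.24, with few reads in every library. For 3 of the 4 the call at 6 h rests on the control used: against the untreated library for 24 h, the log2 ratio at 6 h was 0.80 for Cited2 and -0.34 for Ddit3, under 2-fold, and 1.04 for Ltc4s, the opposite direction. Dusp2 remained higher, with 2.14. The differences between the times were not tested, since each time has 1 library a group.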

How the results depend on the processing

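The counts of 1481 genes called higher and 1162 called lower became 936 and 2311 without rescaling. Genes whose counting interval lay beyond a ratio of 1, with no 2-fold threshold, numbered 2686 higher and 2065 lower. A pseudocount of 3 left 615 genes lower. The other scalings, pseudocounts, filters and controls tried kept both counts within 1.5-fold. Of the counts of higher or lower members in the lists, 37 moved by more than 1.5-fold without rescaling and 47 did not. Against the other untreated library 19 moved and 65 did not, and with a pseudocount of 3 the numbers were 16 and 68. Of 224 named genes called higher or lower, 208 were called the same way without rescaling, 207 with a pseudocount of 3, 213 against the other untreated library and 224 with a pseudocount of 0.5. Against the other untreated library, 2 turned direction: Ltb, with a log2 ratio of 0.22, and Ltc4s, with 1.04; the cause was not tested. Leaving out a replicate was not possible with 1 library a group. No paired analysis was possible because no library carries a replicate number. Depth limits genes near 1 RPKM, where 3 reads set the level.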
